A study of Rattus norvegicus with 24 samples.

Results

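The DEAD and DEAH box RNA helicases were followed in rat myocardium after mitral regurgitation. They were taken as every listed gene whose symbol begins with Ddx or Dhx and a number, with 2 symbols left out of the set. This gave 45 genes, 31 Ddx and 14 Dhx, of the 10129 genes listed at every time. All 45 were listed in every library and all 45 were tested in every comparison.

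The tissue was myocardium of Sprague-Dawley rats, and 24 libraries were sequenced. Mitral regurgitation (MR), the leak of blood from the left ventricle back into the left atrium, was made through a left thoracotomy by perforating a mitral leaflet. Sham rats were operated on without perforation. There were 5 Sham libraries, all taken 2 weeks after surgery. MR was followed for 2 weeks in 4 libraries, and for 10, 20 or 40 weeks in 5 libraries each. With no later Sham, at 10, 20 and 40 weeks the effect of MR cannot be told apart from that of time, age or handling. Whether libraries are separate animals is not stated in the labels, which also lack sex, age and heart chamber. The p-values therefore measure the spread between these libraries, which may be technical.

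RNA helicases of this superfamily use ATP to unwind short RNA duplexes or to strip proteins from RNA. The DEAD box proteins, named after a motif in their ATP-binding core, mostly open short duplexes locally, while the DEAH box proteins tend to pull themselves along 1 strand. Together they act at nearly every step in the life of an RNA, from transcription and splicing through export, ribosome assembly and translation to decay. Many work only with a cofactor that carries a G-patch or MIF4G domain.

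Values are linear normalised read counts, and the libraries held 7.69 to 12.1 M reads on listed genes. The least read member was Dhx33 with 13 reads in its lowest library, and the most read was Ddx5 with up to 7339. A member was said to have risen or fallen where limma gave a Benjamini-Hochberg adjusted p under 0.05 over all genes tested. Fold changes are on the log2(value + 1) scale, where changes at low values come out too small. Transcript lengths of the build used were not at hand, so levels are compared between groups and not between genes. In bulk tissue, fewer cells of a type and less RNA per cell cannot be told apart.

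The sequences before the starts of 2 closely related gene pairs are shown because their transcripts behaved differently at 40 weeks: both Ddx39 genes were lower, while of the Ddx19 genes 1 was lower and the other was not. Each is the 250 bases before the start site, 5′ to 3′ on the gene's own strand, from RefSeq on build GRCr8. Capitals mark matches on either strand to 1 of 7 motifs: the GC box (GGGCGG), the CCAAT box (CCAAT), an ETS core (CCGGAAG), an E box (CACGTG), the CRE (TGACGTCA), a YY1 motif (AAGATGG) and the TATA box (TATAAA). None of these motifs contains another. The windows lie at chr19:41331414-41331663 for Ddx39a, chr20:3589652-3589901 for Ddx39b, chr19:55872210-55872459 for Ddx19a and chr19:55903311-55903560 for Ddx19b, all on the minus strand.
Ddx39a: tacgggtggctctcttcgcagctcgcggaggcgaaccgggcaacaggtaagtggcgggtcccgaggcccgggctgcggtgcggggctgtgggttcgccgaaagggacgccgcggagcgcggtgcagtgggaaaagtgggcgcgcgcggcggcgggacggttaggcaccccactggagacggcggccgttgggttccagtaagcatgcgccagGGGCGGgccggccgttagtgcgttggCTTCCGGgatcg
Ddx39b: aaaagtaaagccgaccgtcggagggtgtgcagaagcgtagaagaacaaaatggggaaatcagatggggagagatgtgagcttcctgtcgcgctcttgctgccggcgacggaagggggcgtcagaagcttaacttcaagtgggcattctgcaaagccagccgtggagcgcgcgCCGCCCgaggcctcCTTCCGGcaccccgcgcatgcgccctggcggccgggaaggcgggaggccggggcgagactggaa
Ddx19a: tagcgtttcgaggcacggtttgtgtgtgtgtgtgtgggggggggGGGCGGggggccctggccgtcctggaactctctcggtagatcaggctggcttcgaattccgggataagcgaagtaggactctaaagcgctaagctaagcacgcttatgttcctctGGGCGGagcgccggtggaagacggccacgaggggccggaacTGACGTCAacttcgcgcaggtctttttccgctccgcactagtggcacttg
Ddx19b: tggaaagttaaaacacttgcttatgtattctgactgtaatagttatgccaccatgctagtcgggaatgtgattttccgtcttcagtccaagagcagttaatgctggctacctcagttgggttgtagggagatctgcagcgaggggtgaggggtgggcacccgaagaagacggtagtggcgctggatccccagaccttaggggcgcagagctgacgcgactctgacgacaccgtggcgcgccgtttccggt

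Both Ddx39 windows held a GC box and an ETS core. The ETS core began 12 bases before the start in Ddx39a and 64 bases before it in Ddx39b. The Ddx19a window held 2 GC boxes and a CRE that began 50 bases before the start, and the Ddx19b window held none of the 7 motifs. A start site was matched for 42 of the 45 members; Ddx6, Ddx24 and Ddx52 were not matched. The ETS core stood in 16 of these 42 windows (38.1%), against 7.74% of all 27457 windows of the same length. The share was 9 of the 18 members that fell at 40 weeks, 2 of the 4 matched members that rose and 5 of the 20 that did not pass. A CRE stood in 5 members (11.9%, against 1.70% of all windows) and a GC box in 23 (54.8%, against 32.4%). A TATA box stood in 0 of 42, against 13.1% of all windows. The members' windows had a median of 18 CpG pairs, against 6 over all windows, and a median GC content of 56.4%, against 52.0%. All windows include those of genes not listed in these data, and shares among the listed genes alone are not given here. Whether the motifs bear on the changes at 40 weeks was not tested.

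Through 20 weeks 0 helicases passed the test against Sham, where few of all genes did. A change that did not pass is not shown to be absent. Of the 45 members 0 passed the test after 2 weeks of MR, where 0% of all genes did. After 10 weeks 0 members passed (0.168% of all genes), and after 20 weeks 0 members passed (0.0698% of all genes). At an unadjusted p under 0.05 there were 1, 2 and 0 members at the 3 times, beside 5.47%, 12.005% and 9.49% of all genes. By adjusted p, edgeR and DESeq2 on recovered reads also called 0 members at each time. The median log2 fold change of the members was -0.07, 0.12 and -0.01 at the 3 times in that order, beside -0.07, 0.06 and 0.00 over all genes. The member with an unadjusted p under 0.05 at 2 weeks was Ddx6, the decay and translational repression helicase of processing bodies, at 9.597 ± 1.51 (SD, n = 4) against 7.22 ± 1.47 in Sham (n = 5). Its log2 fold change was 0.37 ± 0.17 (SE) with an adjusted p of 0.840 by limma. At 10 weeks the 2 were Dhx30 and Ddx54, with log2 fold changes of 0.34 ± 0.14 and 0.29 ± 0.13 (SE) and adjusted p of 0.379 and 0.400 by limma.

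**Figure D1:**
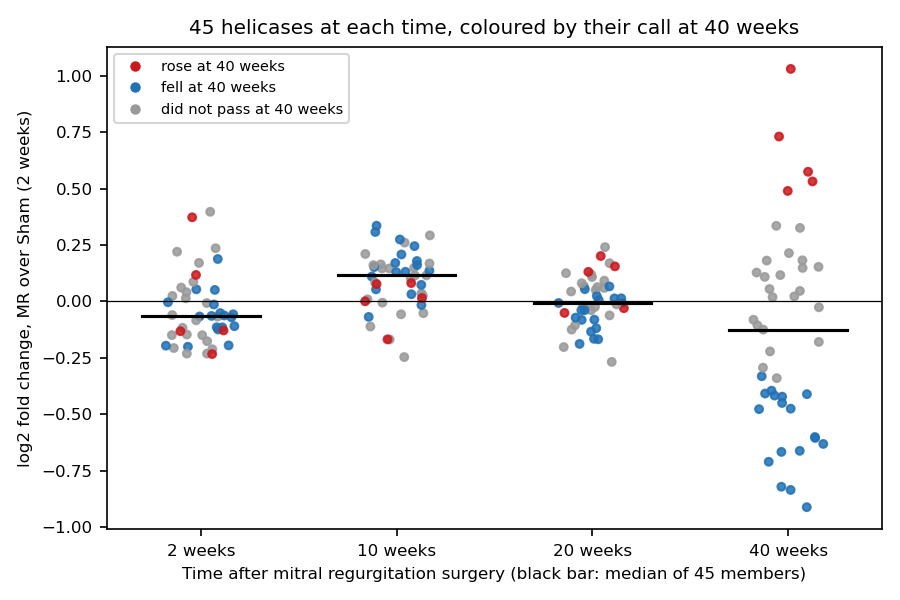
Log2 fold change of each of the 45 helicases over Sham (vertical axis, log2(value + 1) scale) at 2, 10, 20 and 40 weeks of MR, 1 point a gene, coloured by the call at 40 weeks, with the median as a black bar. Points stay between -0.27 and 0.40 through 20 weeks and run from -0.91 to 1.03 at 40 weeks; the Sham libraries are the same at every time.

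At 40 weeks helicases were called in numbers near those of all genes. Of the 45 members, 5 rose and 18 fell against Sham, 23 in all or 51.1%, where 47.3% of all genes passed. In the 2 directions, 11.1% of the members rose, against 16.3% of all genes, and 40.0% fell, against 30.9%. The members' median log2 fold change was -0.12, beside -0.15 over all genes. All 5 MR libraries lay above every Sham library for 2 members, Ddx6 and Dhx40, where 9.06% of all genes did so, and below every Sham library for 14, where 20.2% of all genes did so. These counts are on the deposited scale. They differ on the joined scale, where all 24 libraries were rescaled by median ratios. There Ddx39b, Ddx39a and Ddx49, among others, overlapped Sham, and Dhx8 and Ddx23 also lay above every Sham library.

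The balance of rises and falls differed between settings. On the deposited scale the median gene was 0.15 lower in MR on the log2 scale; after rescaling each library by its median ratio, the split was 9 rises and 11 falls among the members and 23.7% and 21.8% among all genes. The fit of all 24 libraries, which also changes the libraries and genes fitted, gave 11 rises and 9 falls among the members, and 24% and 20.2% among all genes. The 5 rises passed in every one of the 18 or 19 alternatives in which each gene could be tested. Of the 18 falls, 9 passed in every alternative: Dhx57, Ddx39b, Ddx19b, Ddx39a, Dhx35, Ddx20, Ddx49, Ddx47 and Ddx51.

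**Figure D2:**
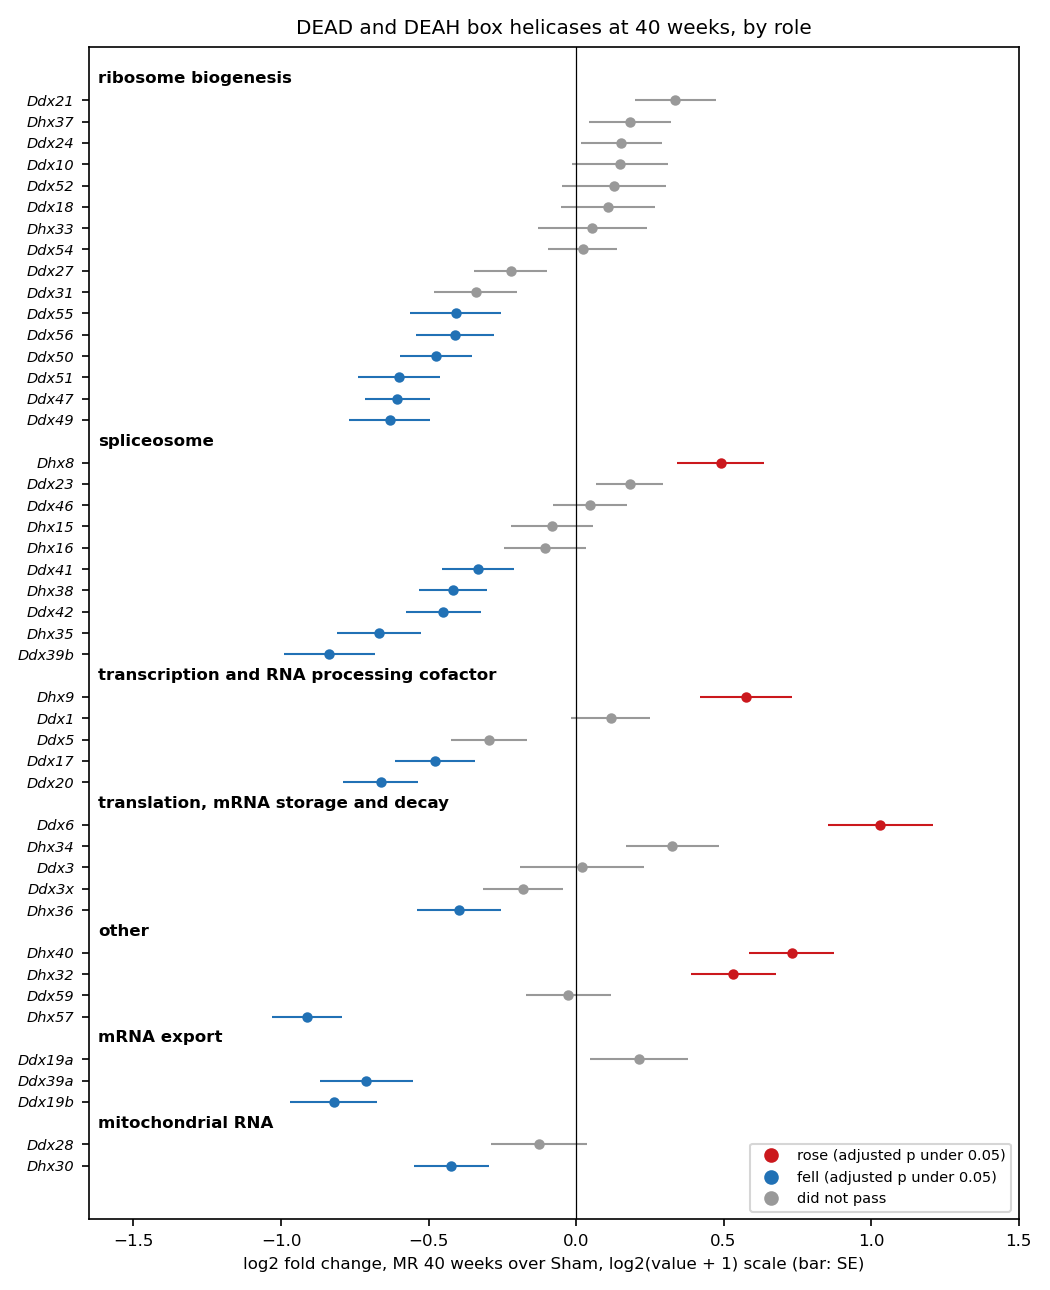
Log2 fold change of each helicase at 40 weeks of MR over Sham (horizontal axis, log2(value + 1) scale, bars are SE, n = 5 and 5), grouped by role and coloured by the test. The 5 members that rose are spread over 4 of the role groups, and the ribosome biogenesis group holds 6 falls and no rise on this scale, but 4 falls and 2 rises after median-ratio rescaling.

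Among the helicases of translation, mRNA storage and decay, 1 of 5 rose and 1 of 5 fell, where 16.3% of all genes rose and 30.9% fell. Ddx6 (chromosome 8, 48925604 to 48958027 on rn6), which represses translation and promotes decapping, had the largest rise of the family. Its values were 7.89, 5.98, 6.12, 5.64 and 8.70 in the Sham libraries and 12.6, 14.1, 10.7, 19.5 and 19.6 in MR at 40 weeks. Every MR library lay above every Sham library, and the MR values also spread more widely. The fold change was 2.04, a log2 fold change of 1.03 ± 0.18 (SE) with an adjusted p of 0.000567 by limma. Dhx36, which unwinds G-quadruplexes, fell from 20.4 ± 3.32 to 15.2 ± 2.53 (SD, n = 5 each; log2 fold change -0.40 ± 0.14 (SE), adjusted p = 0.0341 by limma), but the groups overlapped. That call was lost under 10 of 19 alternatives, including median-ratio rescaling (adjusted p = 0.150 by limma). The translation helicase Ddx3x stood at 122 ± 18.3 in Sham and 107 ± 12.7 at 40 weeks (SD, n = 5 each). Ddx3x and Ddx3, the second of which lies on the Y chromosome and is the rat Ddx3y, had log2 fold changes of -0.18 ± 0.14 and 0.02 ± 0.21 (SE) and did not pass. Sham replicate 1 stood apart for Ddx3, at 36.4 where the other 4 Sham libraries held 14.01 to 16.8. Ddx3x and Ddx3 are closely related, and how reads were divided between them is not given in the sources used here. Dhx34, a nonsense-mediated decay helicase, had a log2 fold change of 0.33 ± 0.16 (SE) and did not pass. It passed as a rise in 5 of 18 alternatives, among them median-ratio rescaling (0.46, adjusted p = 0.0244 by limma).

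In the group of transcription and RNA processing cofactors 1 of 5 members rose and 2 fell, where 16.3% of all genes rose and 30.9% fell. Dhx9 (RNA helicase A; chromosome 13, 70885504 to 70922246), which resolves RNA structures and R-loops, held 12.8, 10.9, 9.19, 12.9 and 16.9 in Sham and 19.1, 19.6, 14.9, 22.1 and 19.03 in MR at 40 weeks. The groups overlapped through the lowest MR library and the highest Sham library. Its log2 fold change was 0.58 ± 0.16 (SE) with an adjusted p of 0.00817 by limma. Ddx20 (Gemin3; chromosome 2, 208144142 to 208152134), a part of the SMN complex that assembles spliceosomal snRNPs, held 10.6, 10.96, 10.0, 10.9 and 9.24 in Sham and 4.98, 6.36, 6.44, 7.66 and 5.61 in MR. Here no MR library reached the lowest Sham library, and the log2 fold change was -0.66 ± 0.13 (SE) with an adjusted p of 0.00103 by limma.

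The p68 and p72 proteins, encoded by Ddx5 and Ddx17, are partners of transcription factors and of the Drosha complex. Ddx5 was the member with the highest value in Sham, at 229 ± 20.2, and stood at 187 ± 20.4 at 40 weeks (SD, n = 5 each). Its log2 fold change of -0.29 ± 0.13 (SE) did not pass (adjusted p = 0.0736 by limma). Ddx17 fell from 48.9 ± 8.03 to 34.5 ± 3.03 (SD, n = 5 each), with a log2 fold change of -0.48 ± 0.14 (SE) and an adjusted p of 0.0105 by limma. After median-ratio rescaling the Ddx17 change was -0.32 and did not pass (adjusted p = 0.0724 by limma). Ddx1, which takes part in tRNA splicing, had a log2 fold change of 0.12 ± 0.14 (SE) and did not pass. It passed as a rise only in the fit of all 24 libraries (0.30, adjusted p = 0.0382 by limma).

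Among the spliceosomal helicases 1 of 10 rose and 5 fell, where 16.3% of all genes rose and 30.9% fell. The split was 2 rises and 3 falls after median-ratio rescaling, and 2 and 2 in the fit of all 24 libraries. Dhx8 (Prp22; chromosome 10, 89646195 to 89683447), which releases the spliced mRNA, held 3.97, 3.62, 4.24, 4.58 and 5.01 in Sham and 7.27, 4.83, 6.48, 8.38 and 5.53 in MR at 40 weeks. On the deposited scale a single MR library fell within the Sham range, and on the joined scale every MR library lay above it. The log2 fold change was 0.49 ± 0.15 (SE) with an adjusted p of 0.0147 by limma.

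Ddx39b (UAP56; chromosome 20, 4806108 to 4818559) acts in early spliceosome assembly and, within the TREX complex, in mRNA export. It held 81.4, 96.9, 80.0, 64.8 and 73.9 in Sham and 47.4, 40.6, 56.9, 43.7 and 33.2 in MR at 40 weeks. The groups did not overlap on the deposited scale. On the joined scale the highest MR library (60.5) lay just above the lowest Sham library (59.7). The MR mean was 0.560 of Sham by the fitted fold on the deposited scale. That is a log2 fold change of -0.84 ± 0.15 (SE) with an adjusted p of 0.000829 by limma. Dhx35 fell from 16.3 ± 3.30 to 9.74 ± 0.768 (SD, n = 5 each; log2 fold change -0.67 ± 0.14 (SE), adjusted p = 0.00204 by limma). The other 3 falls in the group were smaller. Dhx38 (Prp16), which remodels the spliceosome between its catalytic steps, had a log2 fold change of -0.42 ± 0.12 (SE), and its call was lost only in the fit of all 24 libraries (adjusted p = 0.115 by limma). The calls on Ddx42 (-0.45) and Ddx41 (-0.33) were lost after median-ratio rescaling, at -0.30 and -0.19. The Ddx42 call was lost in 2 of 19 alternatives. The Ddx41 call was lost in 10 of 19, among them edgeR, DESeq2 and several fits with 1 library left out. Ddx46 (Prp5), Dhx15 (Prp43), Dhx16 (Prp2) and Ddx23 (Prp28) did not pass, with log2 fold changes of 0.05, -0.08, -0.11 and 0.18. Ddx23 passed as a rise in 4 of 19 alternatives, among them median-ratio rescaling (0.34, adjusted p = 0.0134 by limma). The signs of the Dhx15 and Dhx16 values turned after rescaling, to 0.07 and 0.04.

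Of the 3 mRNA export helicases 2 fell and 0 rose, where 30.9% of all genes fell and 16.3% rose. Ddx39a (chromosome 19, 24846938 to 24854887), the close relative of Ddx39b in TREX, held 14.2, 14.8, 11.7, 11.7 and 8.45 in Sham and 8.41, 6.74, 7.06, 7.50 and 5.28 in MR at 40 weeks. On the deposited scale the highest MR library lay just under the lowest Sham library. On the joined scale it lay above it, at 9.05 against 8.34. The log2 fold change of Ddx39a was -0.71 ± 0.16 (SE) with an adjusted p of 0.00269 by limma. Ddx19b (chromosome 19, 43220451 to 43246197), which strips proteins from mRNA at the cytoplasmic face of the nuclear pore, held 18.2, 13.2, 12.8, 11.9 and 12.2 in Sham and 8.25, 7.44, 8.65, 5.85 and 6.24 in MR. The groups did not overlap, and the log2 fold change was -0.82 ± 0.15 (SE) with an adjusted p of 0.000682 by limma. Its neighbour Ddx19a (chromosome 19, 43251510 to 43271866) held 16.6, 8.93, 10.0, 15.8 and 14.7 in Sham and 15.4, 16.1, 13.01, 16.7 and 14.3 in MR. On the deposited scale its MR values lay almost wholly within the Sham range. Its log2 fold change of 0.21 ± 0.17 (SE) did not pass (adjusted p = 0.303 by limma). In the fit of all 24 libraries Ddx19a passed as a rise (0.39, adjusted p = 0.0172 by limma).

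Ribosome biogenesis is the largest role in the family, and of its 16 members 0 rose and 6 fell (37.5%, where 30.9% of all genes fell). After median-ratio rescaling 2 of the 16 rose, Ddx21 and Ddx24, and 4 fell, Ddx47, Ddx49, Ddx50 and Ddx51. Ddx49 (chromosome 16, 20873662 to 20881311) held 17.1, 15.8, 17.05, 13.5 and 14.99 in Sham and 10.5, 11.4, 11.7, 7.86 and 7.89 in MR at 40 weeks. On this deposited scale the groups did not overlap (log2 fold change -0.63 ± 0.14 (SE), adjusted p = 0.00240 by limma). On the joined scale they overlapped, with the highest MR library at 12.8 and the lowest Sham library at 12.4. Ddx47 (Rrp3 in yeast; chromosome 4, 168775134 to 168787595), which acts in small subunit processing, was tight within each group. It held 22.9, 24.7, 22.5, 24.6 and 22.3 in Sham and 16.4, 15.4, 16.2, 14.5 and 12.9 in MR, with a log2 fold change of -0.61 ± 0.11 (SE) and an adjusted p of 0.000763 by limma. Ddx51 fell from 4.47 ± 0.779 to 2.58 ± 0.322 (SD, n = 5 each; log2 fold change -0.60 ± 0.14 (SE), adjusted p = 0.00332 by limma). Ddx50, Ddx56 and Ddx55 had log2 fold changes of -0.48, -0.41 and -0.41. The Ddx56 call was lost after median-ratio rescaling (adjusted p = 0.0730 by limma) and the Ddx55 call was lost in 11 of 18 alternatives.

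The other 10 members of that role did not pass. The nucleolar helicase Ddx21, a sensor of RNA polymerase I and II transcription, had the largest rise in value among them, from 19.3 ± 4.04 to 24.3 ± 1.77 (SD, n = 5 each; log2 fold change 0.34 ± 0.14 (SE), adjusted p = 0.0574 by limma). It passed as a rise in 6 of 19 alternatives, among them median-ratio rescaling (0.49, adjusted p = 0.00685 by limma). Others were edgeR, DESeq2, the fit of all 24 libraries and the fit with Sham replicate 1 left out. Ddx24 had a log2 fold change of 0.15 ± 0.14 (SE) and passed as a rise in 3 of 19 alternatives, among them rescaling (0.31, adjusted p = 0.0393 by limma). The 5 lowest members by Sham level in the joined scale were Dhx33, Ddx52, Ddx59, Ddx31 and Ddx10, at 1.43 to 3.48, and none of them passed at 40 weeks against Sham.

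Of the 2 members that act in mitochondria 1 fell and 0 rose, where 30.9% of all genes fell and 16.3% rose. In the mitochondria, Dhx30, which serves the mitochondrial ribosome, fell from 41.5 ± 6.66 to 30.4 ± 1.43 (SD, n = 5 each; log2 fold change -0.42 ± 0.13 (SE), adjusted p = 0.0145 by limma), and the call was lost after median-ratio rescaling (adjusted p = 0.116 by limma). Ddx28, which assembles the large subunit there, had a log2 fold change of -0.12 ± 0.16 (SE), which turned to 0.01 after rescaling, and did not pass.

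Of the 4 members with less defined roles 2 rose and 1 fell, where 16.3% of all genes rose and 30.9% fell. That fall was the largest of the family. Dhx57 (chromosome 6, 2921340 to 2961398) held 19.1, 22.0, 20.1, 16.9 and 15.6 in Sham and 8.98, 9.28, 10.5, 9.22 and 9.14 in MR at 40 weeks. The MR values lay close together, well under the lowest Sham library, with a log2 fold change of -0.91 ± 0.12 (SE) and an adjusted p of 0.000182 by limma. Dhx40 (chromosome 10, 74081442 to 74119033) held 9.05, 5.89, 5.67, 8.84 and 8.70 in Sham and 13.9, 12.4, 13.7, 13.6 and 11.9 in MR. All MR libraries were above all Sham libraries, and the log2 fold change was 0.73 ± 0.14 (SE) with an adjusted p of 0.00128 by limma. Dhx32 (chromosome 1, 205789442 to 205842429) held 9.87, 9.14, 9.76, 8.05 and 13.9 in Sham and 14.6, 17.2, 12.7, 16.3 and 13.9 in MR, and the highest Sham library lay within the MR range. Its log2 fold change was 0.53 ± 0.14 (SE) with an adjusted p of 0.00837 by limma. Ddx59 had a log2 fold change of -0.03 ± 0.14 (SE), which turned to 0.09 after rescaling, and did not pass.

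The change between 20 and 40 weeks was tested among the MR libraries themselves, on a scale joined over all 24 libraries by median ratios. From 2 to 10 weeks 0 members passed, against 1.37% of all genes. From 10 to 20 weeks 0 passed, against 0.01%, and from 2 to 20 weeks 0 passed, against 8.81%. At an unadjusted p under 0.05 there were 3, 0 and 5 members in these 3 comparisons, beside 15.2%, 15.2% and 26.9% of all genes. edgeR called 0 members in each and DESeq2 called 1, 0 and 0. From 20 to 40 weeks 8 members rose and 6 fell, 31.1% in all, where 38.8% of all genes passed, 21.3% rising and 17.6% falling. Against 10 weeks, 11 rose and 15 fell at 40 weeks, 57.8% in all, where 54.2% of all genes passed, 28.1% rising and 26.2% falling. Against 2 weeks, 10 rose and 8 fell, 40.0% in all, where 45.7% of all genes passed, 24.3% rising and 21.3% falling. These 3 comparisons share the 40 week libraries.

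MR 2 weeks replicate 1 stood apart from the other 3 libraries of its group for many members. It held 43.5 for Dhx57 where the others held 12.8 to 16.8, and 3.11 for Dhx40 where the others held 6.45 to 9.47. Without it, 6 members rose and 4 fell from 2 to 40 weeks, where 19.5% of all genes rose and 15.4% fell, and the change of Dhx57 went from -0.81 to -0.43, with an adjusted p of 0.119 by limma. MR 20 weeks replicate 5 lay nearest to the 40 week libraries on the first principal component of the 45 members, which carried 55.1% of their variance: it stood at 1.51, the 40 week libraries at 1.61 to 2.67 and all others at 0.52 or lower. Without it, 11 of the 45 members fell from 20 to 40 weeks in place of 6, where 20.1% of all genes fell in place of 17.6%, and Dhx57, at -0.80, was among them (adjusted p = 0.00928 by limma).

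At 40 weeks 5 members were higher both than Sham and than each earlier MR time: Ddx6, Dhx40, Dhx9, Dhx32 and Dhx8. They were 11.1% of the members, where 12.3% of all genes rose in the same 4 comparisons, which share the 40 week libraries. Another 6 were lower both than Sham and than each earlier MR time: Ddx39b, Ddx39a, Ddx19b, Ddx49, Ddx47 and Ddx56. They were 13.3% of the members, where 11.3% of all genes fell in all 4. Here Sham was tested in its own table and the MR times on the joined scale. With Sham tested in the fit of all 24 libraries too, a setting chosen after seeing the data, Ddx23 joined the rises (14.9% of all genes rose in all 4) and Ddx56 left the falls (10.8% of all genes fell), at -0.26 with an adjusted p of 0.0719 by limma. With any 1 library left out, 8 of the first 11 passed all 4 comparisons. The other 3 were Dhx9 and Ddx47, which missed against 2 weeks without MR 2 weeks replicate 1 (adjusted p = 0.149 and 0.0614 by limma), and Ddx56. Dhx9 also missed against 2 weeks without MR 2 weeks replicate 3 (adjusted p = 0.0546 by limma) and without MR 40 weeks replicate 4 (0.0564). Ddx56 missed against Sham without MR 40 weeks replicate 1 (adjusted p = 0.0517 by limma). It missed against 2 weeks without MR 2 weeks replicate 1, 3 or 4 or MR 40 weeks replicate 1 or 5 (adjusted p from 0.0574 to 0.0884 by limma), and against 20 weeks without MR 20 weeks replicate 1, 2, 3 or 4 or MR 40 weeks replicate 1, 3, 4 or 5 (0.0576 to 0.133).

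On the joined scale Ddx6 held 10.6, 10.7, 8.87 and 7.82 at 2 weeks. Its values after 10 weeks were 7.16, 5.78, 3.45, 6.66 and 5.33. It then held 7.90, 4.60, 6.64, 5.91 and 8.27 after 20 weeks. In the 40 week libraries it held 13.6, 15.8, 11.3, 21.5 and 23.7, above every earlier library. The step from 20 to 40 weeks was 1.22 ± 0.19 (SE) on the log2 scale with an adjusted p of 4.02e-05 by limma. Dhx40 held 6.58, 8.86, 10.6, 7.13 and 10.9 at 20 weeks and 14.98, 13.97, 14.6, 14.9 and 14.4 at 40 weeks. The 40 week values were again above every earlier library, and the step was 0.69 ± 0.19 (SE) with an adjusted p of 0.00596 by limma. For Dhx8, Dhx9 and Dhx32 the steps from 20 to 40 weeks were 0.69 ± 0.17, 0.61 ± 0.18 and 0.54 ± 0.16 (SE), with overlapping groups.

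Of the members lower at 40 weeks, Ddx47 held 23.6, 23.6, 23.05, 25.2 and 21.3 at 20 weeks and 17.6, 17.3, 17.3, 15.99 and 15.6 at 40 weeks. Every earlier library lay between 18.9 and 25.7, and the step was -0.46 ± 0.09 (SE) on the log2 scale with an adjusted p of 0.000441 by limma. Ddx39b held 105, 70.1, 71.4, 76.0 and 53.3 at 20 weeks and 51.1, 45.6, 60.5, 48.1 and 40.1 at 40 weeks. Replicate 5 of 20 weeks lay among the 40 week values, and the step was -0.59 ± 0.17 (SE) with an adjusted p of 0.0104 by limma. The steps of Ddx39a, Ddx49, Ddx19b and Ddx56 were -0.55 ± 0.14, -0.53 ± 0.12, -0.50 ± 0.14 and -0.29 ± 0.12 (SE). The other members that rose from 20 to 40 weeks were Ddx52 (0.46 ± 0.15), Ddx21 (0.46 ± 0.11) and Ddx23 (0.24 ± 0.09; log2 ± SE), which did not pass against Sham in the 40 week table. In the fit that gave these steps, Ddx21 (0.51, adjusted p = 0.000630 by limma) and Ddx23 (0.36, adjusted p = 0.00344) did rise against Sham, and Ddx52 did not pass (0.27, adjusted p = 0.153). Dhx57, with the largest fall against Sham, did not pass between 20 and 40 weeks, where 20 weeks replicate 5 held 8.62 and the other 4 held 15.2 to 25.7.

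Against 10 weeks the largest changes at 40 weeks were 1.43 ± 0.19 for Ddx6 and -0.95 ± 0.25 for Dhx57 (log2 ± SE). Further rises were Dhx40 (0.89), Dhx9 (0.81), Dhx32 (0.75) and Dhx8 (0.62), and further falls were Ddx39a (-0.79), Ddx19b (-0.76), Ddx39b (-0.74) and Dhx35 (-0.56). Against 2 weeks the largest were 1.06 ± 0.20 for Dhx40, -0.82 ± 0.15 for Ddx39a, -0.81 ± 0.26 for Dhx57 and -0.79 ± 0.15 for Ddx19b (log2 ± SE). Next came Dhx32 (0.76), Ddx6 (0.76), Dhx8 (0.71), Ddx39b (-0.68), Dhx34 (0.65) and Dhx9 (0.55), of which Dhx34 and Dhx9 did not pass without MR 2 weeks replicate 1. Between 2 and 10 weeks Ddx6 went from 9.49 ± 1.40 (SD, n = 4) to 5.68 ± 1.44 (n = 5), a difference that did not pass (log2 -0.67 ± 0.20 (SE), adjusted p = 0.0932 by limma).

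**Figure D3:**
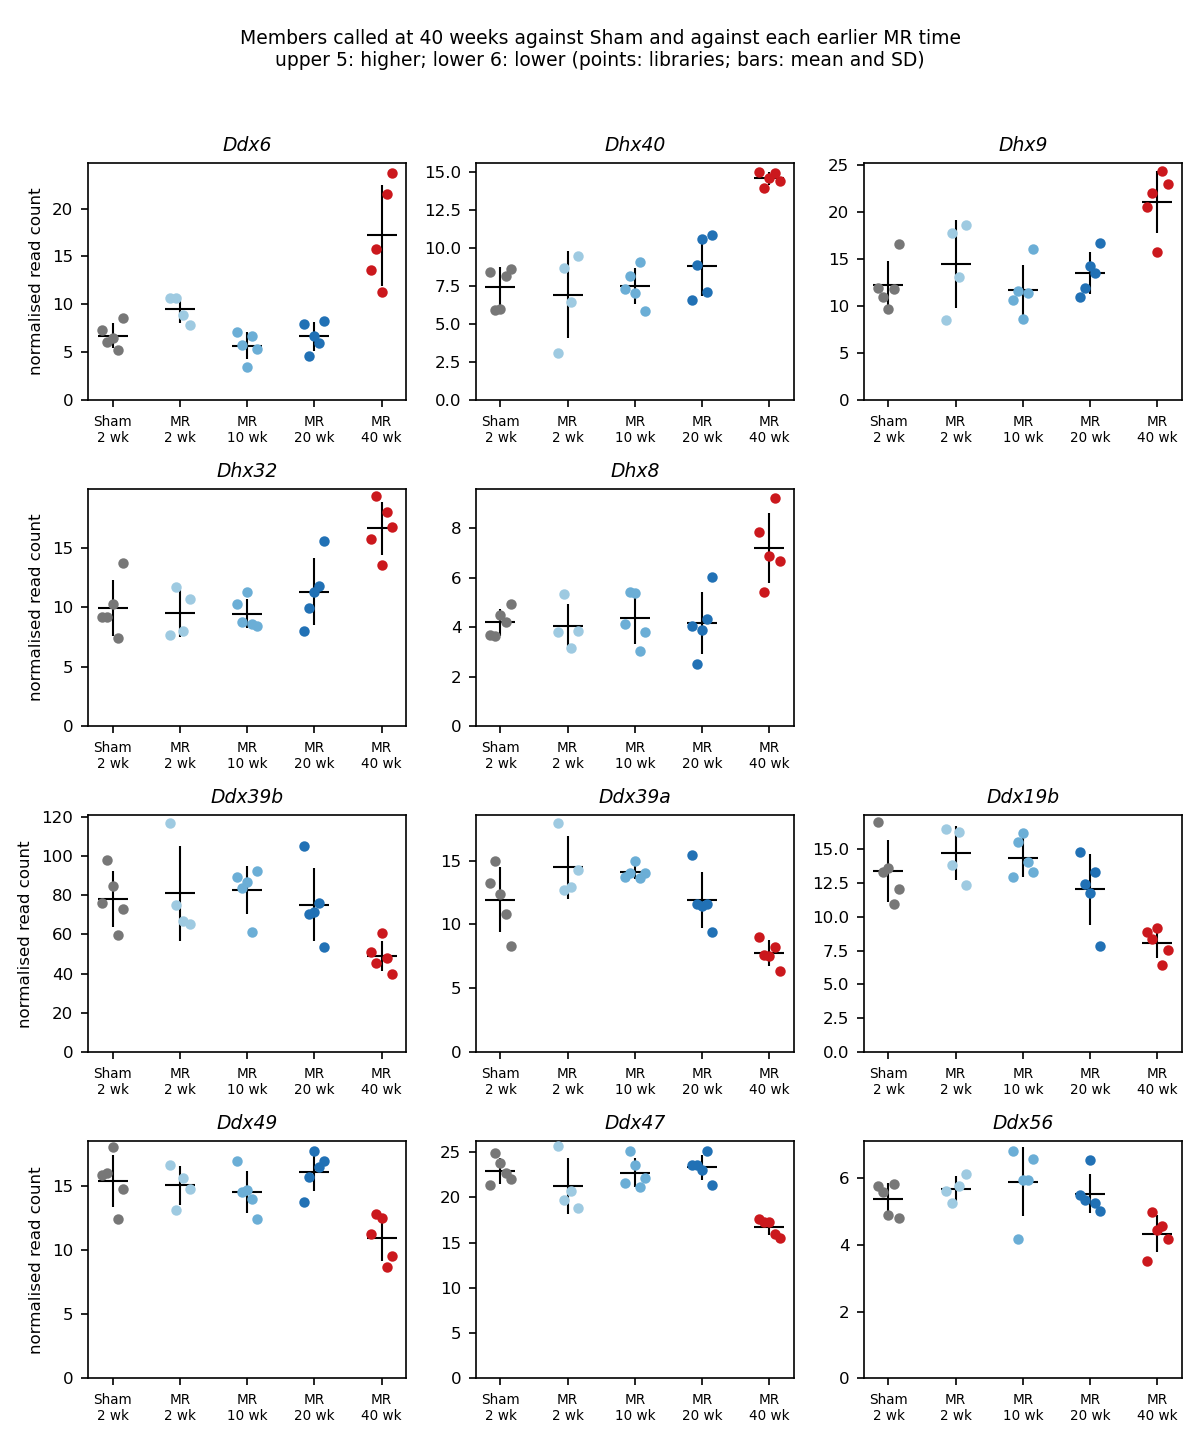
Normalised read count (vertical axes, joined scale, from 0) in each of the 24 libraries for the 5 helicases higher and the 6 lower at 40 weeks than in Sham and at each earlier MR time; points are libraries, bars are mean and SD. The 40 week libraries of Ddx6 (11.3 to 23.7) and Dhx40 (13.97 to 14.98) lie above every other library.

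Closely related or neighbouring members were set against each other within each library, which removes the library's scale. These 5 ratios were chosen after the values of the members had been seen, so they are given as a description, with no test. The ratio of Ddx19b to Ddx19a was 1.09 ± 0.302 in Sham, 1.11 ± 0.295 at 2 weeks, 1.08 ± 0.163 at 10 weeks, 0.891 ± 0.217 at 20 weeks and 0.490 ± 0.118 at 40 weeks (SD; n = 4 at 2 weeks and 5 elsewhere). The 40 week libraries, at 0.351 to 0.666, lay under every Sham library, at 0.751 to 1.47. The log2 ratio changed by -1.14 ± 0.24 (SE). The ratio of Ddx50 to Ddx21, nucleolar relatives that lie side by side on chromosome 20, went from 1.13 ± 0.248 in Sham to 0.616 ± 0.057 at 40 weeks (SD, n = 5 each), a log2 change of -0.85 ± 0.15 (SE). For this pair the 2 week libraries were also low, at 0.744 to 0.992.

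The ratio of Ddx39b to Ddx39a was 6.67 ± 1.28 in Sham and 6.36 ± 0.979 at 40 weeks (SD, n = 5 each), with a log2 change of -0.06 ± 0.15 (SE). That of Ddx17 to Ddx5 changed by -0.19 ± 0.14 (SE) and that of Ddx3 to Ddx3x by 0.20 ± 0.20 (SE). The partners of the Ddx19, Ddx39 and Ddx3 pairs are closely related, and their transcript sequences were not compared here. Whether reads were shared between the partners was not tested.

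**Figure D4:**
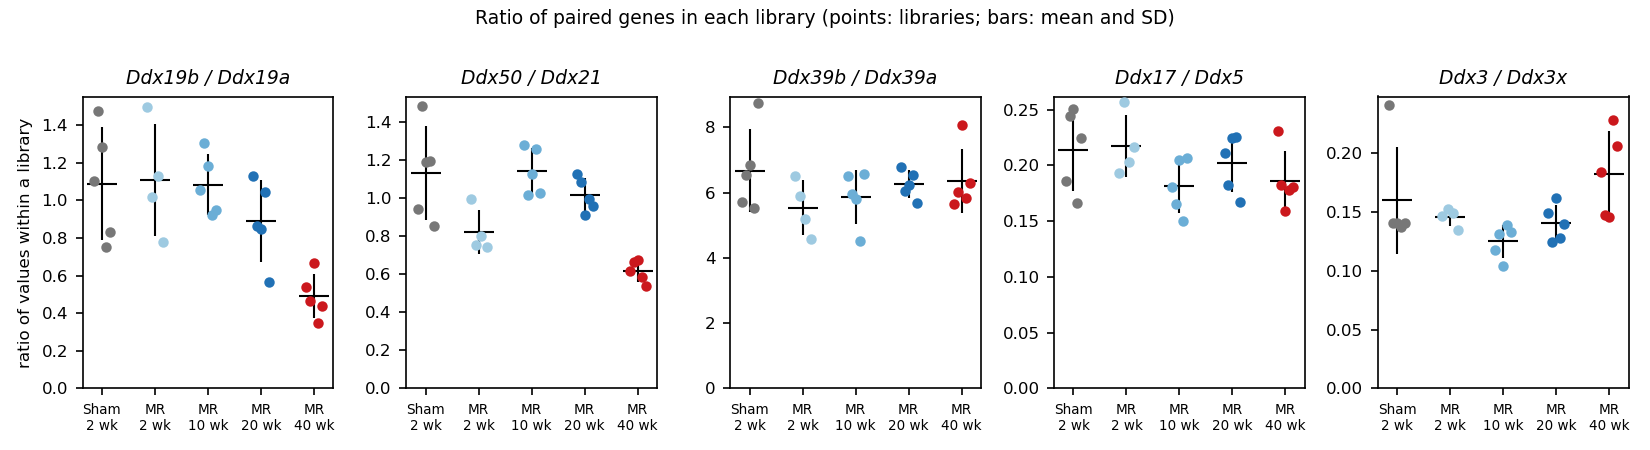
Ratio of the values of 2 related helicases within a library (vertical axes, from 0) for 5 pairs across the 5 groups; points are libraries, bars are mean and SD. At 40 weeks Ddx19b to Ddx19a lies between 0.351 and 0.666 and Ddx50 to Ddx21 between 0.538 and 0.676, under every Sham library, while the other 3 pairs overlap with Sham.

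The eIF4A genes are DEAD box genes by sequence but carry other symbols. Eif4a1, the initiation factor that opens the leader of an mRNA for the ribosome, fell from 89.6 ± 9.72 to 63.2 ± 8.78 at 40 weeks (SD, n = 5 each; log2 fold change -0.50 ± 0.13 (SE), adjusted p = 0.00686 by limma). Eif4a3, the anchor of the exon junction complex, fell from 29.1 ± 3.68 to 22.6 ± 3.96 (log2 fold change -0.36 ± 0.14 (SE), adjusted p = 0.0475 by limma). Eif4a2 had a log2 fold change of 0.12 ± 0.21 (SE) and did not pass. These values against Sham are on the deposited scale, where the median gene was lower in MR. Values after median-ratio rescaling are not given for these genes against Sham. From 20 to 40 weeks 0 of the 3 eIF4A genes passed.

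Partner genes were read from the same fit at 40 weeks against Sham, where 16.3% of all genes rose and 30.9% fell. After median-ratio rescaling these shares were 23.7% and 21.8%, and the lists are not given on that scale against Sham. Of 20 mRNA export and exon junction genes, 1 rose and 14 fell, with a median log2 fold change of -0.56, beside -0.15 over all genes. They included Rbm8a (-0.89), a core exon junction protein, Zc3h11a (-0.95) and Srrm1 (-1.05), both linked to export. Of 37 rRNA processing genes 0 rose and 18 fell, with a median of -0.34; examples were Dkc1 (-0.94), the pseudouridine synthase of box H/ACA particles, Fbl (-0.74), the methyltransferase of box C/D particles, and Wdr75 (-0.70). Of 27 spliceosome partners 2 rose and 10 fell, with a median of -0.23, among them U2af1 (-1.16), which reads the end of the intron, Snrpd1 (-0.93) and Cwc15 (-0.81).

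Cofactors of the helicases were mixed, beside 16.3% of all genes that rose and 30.9% that fell. Of 19 G-patch genes 2 rose and 5 fell, with Rbm5 at -1.20, Gpank1 at -0.78 and Rbm10 at -0.62. Of 9 MIF4G genes 2 rose and 1 fell: Upf2 (0.59), a nonsense-mediated decay factor, and Gle1 (0.57), the activator of Ddx19 at the nuclear pore, rose, and Ncbp1 (-0.56), of the cap binding complex, fell. Of 27 RNA granule genes 8 rose and 7 fell, with a median of 0.04. Patl1 (0.68), a decapping factor that binds Ddx6, rose, while Fmr1 (-0.73) and Tial1 (-0.60) fell. Of 12 microRNA processing genes 1 rose, Ago2 (0.89), and 4 fell, among them Tarbp2 (-0.51) and Prkra (-0.62). Of 11 RNA helicases outside the family 1 rose, Znfx1 (0.62), and 0 fell. From 20 to 40 weeks, where 21.3% of all genes rose and 17.6% fell, 3 of the 20 export genes rose and 11 fell, and 11 of the 27 granule genes rose and 0 fell. The rRNA processing genes gave 2 rises and 10 falls, the spliceosome partners 3 and 7, and the G-patch genes 3 of 18 and 4. The MIF4G genes gave 5 rises and 1 fall, the microRNA processing genes 3 and 1, and the other helicases 4 and 0.

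**Figure D5:**
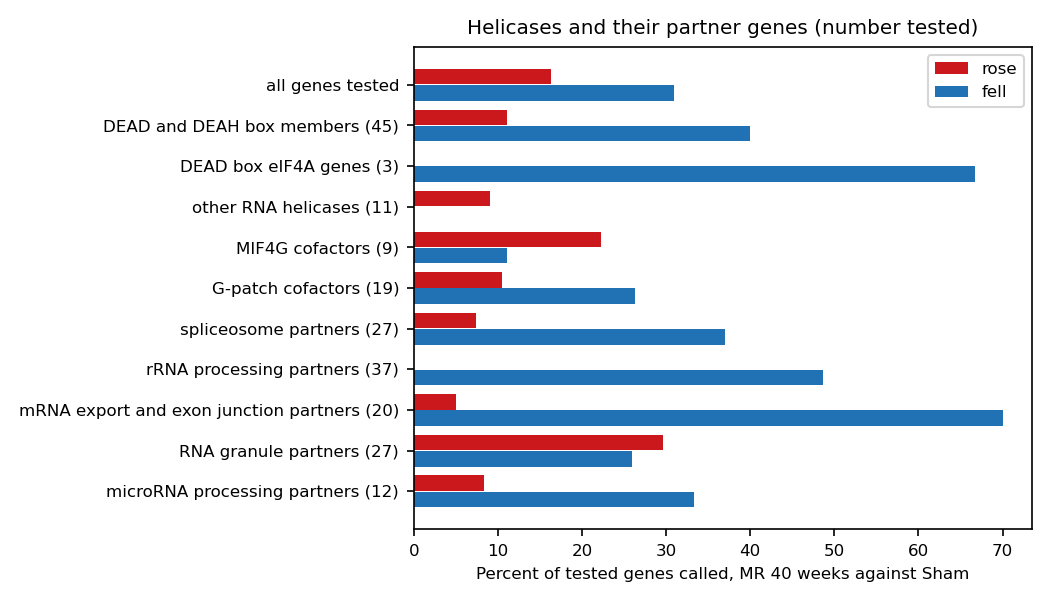
Percent of tested genes that rose or fell at 40 weeks of MR against Sham (horizontal axis) for all genes, the 45 helicases and 9 lists of related genes; numbers tested are in parentheses. The export and exon junction list has 14 of 20 genes fallen, and the rRNA processing list has 18 of 37 fallen and none risen. Of all genes 30.9% fell and 16.3% rose.

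Other features were set beside the 40 week change, and their part in it was not tested. Among all 10094 genes the log2 fold change at 40 weeks rose with the span of the gene on the genome (Spearman's rho across genes 0.33, genes not being independent), and it was 0.33 across the 45 members. With the genes cut into 4 equal classes by span, 47.7% fell and 7.05% rose in the class of shortest spans, and 16.4% fell and 28.2% rose in the class of longest. The 9 members in the class of shortest spans held 7 of the falls and 0 rises, while the 5 rises lay in the third and the fourth class. The counts of cell type markers stand beside 30.9% of all genes that fell and 16.3% that rose. Their sums are on the deposited scale, where the median gene was 0.15 lower in MR on the log2 scale. Of the cell type markers, 5 of 11 endothelial markers fell and 1 rose, with summed levels of 839 to 1107 at 40 weeks and 1106 to 1367 in Sham. For fibroblast markers 4 of 11 fell and 1 rose, with sums of 743 to 1074 and 1014 to 2795. For macrophage markers 4 of 11 fell and 0 rose, with sums of 62.0 to 145 and 109 to 212. Of 9 smooth muscle and pericyte markers 3 fell and 2 rose (159.8 to 328 and 182 to 499), of 3 adipocyte markers 2 fell and 0 rose (180.0 to 302 and 373 to 582), and of 9 markers of dividing cells 5 fell and 0 rose (8.78 to 15.5 and 12.3 to 29.4). Cardiomyocyte markers were present throughout, with sums of 35959 to 52637 at 40 weeks and 42654 to 58859 in Sham, and of 13 tested 3 rose and 4 fell. Of the atrial markers 2 of 5 rose and 1 fell (163 to 1961 and 143 to 606). Of 6 erythroid, 2 neutrophil and 4 lymphocyte markers tested 0 rose, and 1 fell, in the lymphocyte list.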

How the data were processed

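RNA of 24 rat myocardium libraries was sequenced on the Illumina platform, per the labels' protocols, and processed with Partek on rat build rn6, per the submitters' processing notes. Neither the aligner and annotation nor the counting rule, strand setting and scaling were given in the sources used here, so reads of overlapping or antisense genes cannot be told apart. The authors deposited 4 tables of normalised signal (gene counts on a linear scale), each with 1 MR time beside the same 5 Sham libraries. These deposited signal values are reads divided by 1 factor per library: 97.3% to 97.6% of values were within 0.1 read of a whole read. No gene is listed with 0 reads in any library of its table, so genes absent from a library cannot be seen.

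For the tests against Sham, limma 3.58.1 (R 4.3.3) was run table by table on log2(value + 1) (empirical Bayes with a mean trend, two-sided). Genes with a table mean under 1 were left out, and p-values were Benjamini-Hochberg adjusted over all genes, with a threshold of 0.05. MR times were compared in a fit of all 24 libraries over genes in every table, where a Sham library was the mean of its 4 columns and each library was rescaled by median ratios. The limma step was tested on simulated data. edgeR 4.0.16 and DESeq2 1.42.0 on recovered reads were alternatives, with other pseudocounts, filters, scalings, weights and each library left out.

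Groups came from the labels, and replicates were numbered in accession order. Motifs were searched in RefSeq windows of 250 bases before the first listed start site of each gene (GRCr8), on both strands; coordinates of genes are those of the tables (rn6). The members, roles and lists were chosen with earlier results of these data known. Members were named by a rule: up to 10 that passed with the largest change in each comparison, a panel of well-known helicases, the 5 highest and 5 lowest in Sham, the largest rise and fall in each role, and the eIF4A genes. Examples from other lists are those with the smallest p. Ddx60, of the panel, was not analysed here. Lists covered the partner genes named in the report and markers of cell types; 0 of 5 nuclear retained RNAs were among the tested genes.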

Additional observations from a re-analysis of the deposited data

Results flagged for a closer look

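Among 225 sets of 4 or 5 libraries (a member in a group), 18 held a library far from the rest (8%), where chance flags about 1 in 20. Of these, 9 were in MR 2 weeks replicate 1, on the joined scale: Ddx20 at 19.9 (others up to 8.64), Ddx42 at 64.4 (up to 40.2), Ddx5 at 247 (up to 207), Ddx50 at 24.004 (up to 17.9), Ddx55 at 10.4 (up to 5.83), Dhx36 at 28.4 (up to 17.5), Dhx37 at 10.7 (up to 9.23), Dhx38 at 25.5 (up to 15.99) and Dhx57 at 43.5 (up to 16.8). All of these were the highest of their group. The 3 in Sham were Ddx3 at 33.9 in replicate 1 (others up to 17.7), Dhx15 at 33.4 in replicate 1 (up to 24.8) and Ddx54 at 18.2 in replicate 3 (up to 14.99). In MR the rest were Ddx21 at 21.1 in 2 weeks replicate 3 (others from 23.7), Ddx39b at 61.4 (others from 83.6) and Ddx5 at 203 (others from 244) in 10 weeks replicate 4, Ddx5 at 318 (others up to 236) and Dhx16 at 18.95 (others up to 15.2) in 20 weeks replicate 1, and Ddx51 at 3.37 in 40 weeks replicate 1 (others up to 2.76).

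The change against Sham differed between 20 and 40 weeks for 14 members, tested as the difference of the 2 MR groups by limma. They were 31.1% of the members, where 38.8% of all genes passed, 21.3% rising and 17.6% falling. On the log2 scale the difference was 1.22 for Ddx6, 0.69 for Dhx40, 0.69 for Dhx8, 0.61 for Dhx9, 0.54 for Dhx32, 0.46 for Ddx52, 0.46 for Ddx21 and 0.24 for Ddx23. It was -0.59 for Ddx39b, -0.55 for Ddx39a, -0.53 for Ddx49, -0.50 for Ddx19b, -0.46 for Ddx47 and -0.29 for Ddx56.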

How the results depend on the processing

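No paired analysis was possible because the labels give no replicate numbers shared between groups. The counts of 0 members at 2, 10 and 20 weeks against Sham held under every alternative run. At 40 weeks against Sham the members that rose (5) became 9 after median-ratio rescaling, 11 in the fit of all 24 libraries, 8 with edgeR and 9 with DESeq2, and those that fell (18) became 11 after rescaling and 9 in the fit of all libraries; the total stayed between 18 and 24. Between MR times, 10 against 2 weeks gave 4 members with library weights and 1 with DESeq2 in place of 0, and 20 against 2 weeks gave 3 with library weights. For 40 against 20 weeks, library weights gave 23 members with 11 falls. A filter at a mean of at least 10, which leaves fewer genes to test, gave 9 members with 4 rises. The same filter gave 17 members with 6 rises for 40 against 10 weeks and 5 rises for 40 against 2 weeks, and a fit of only those 2 MR groups gave 5 falls for 40 against 2 weeks. Leaving out 1 library gave 5 to 11 falls for 40 against 20 weeks, with 11 without MR 20 weeks replicate 5. It gave 0 to 2 members for 20 against 2 weeks, with 1 without MR 2 weeks replicate 4 and 2 without MR 20 weeks replicate 1. For 40 against 2 weeks it gave 10 to 20 members, 6 to 10 rises and 4 to 11 falls, the lowest of each without MR 2 weeks replicate 1. The members that turned sign at 40 weeks against Sham in some setting had not passed the test: Ddx3, Ddx3x, Ddx28, Ddx46, Ddx54, Ddx59, Dhx15, Dhx16 and Dhx33. Among them were Dhx16 at 0.0437 after rescaling, Ddx59 at 0.0931, Ddx28 at 0.0127 and Ddx3 at -0.0201 with library weights. Others were Ddx3x at 0.0037 in the fit of all 24 libraries, and Dhx15 at 0.072 after rescaling, 0.0971 in the fit of all libraries, 0.0546 with edgeR and 0.0729 with DESeq2. With 1 library left out Dhx15 ran from -0.135 to 0.0288, the latter without Sham replicate 1. Ddx46 ran from -0.0049, without MR 40 weeks replicate 1, to 0.1068, and the log2 ratio of Ddx39b to Ddx39a, which ran from -0.149 to 0.0411 with 1 library left out, turned without Sham replicate 5, to 0.0411. The cause of these differences was not tested. Depth was lowest for Dhx33, with 13 reads in its lowest library, and its effect on the calls was not tested.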
